A study of Oryctolagus cuniculus with 6 samples.

Results

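Matrix metalloproteinases (MMPs) and tissue inhibitors of metalloproteinases (TIMPs) were followed in rabbit tracheal mucosa through 9 genes of the 29587 in the deposited table. They are MMP1, MMP2, MMP3, MMP9, MMP10, MMP12, MMP14, TIMP1 and TIMP3, taken by symbol from a list of 10 names; the tenth, TIMP2, was not analysed here. The names were chosen by their count values in this same contrast, with the difference between the groups already known. Differences between the groups in these 9 genes are therefore given as a description, and their calls in the test on the whole table support nothing further.

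The animals were New Zealand rabbits aged 3 months, with 3 libraries per group. In the high cuff pressure group, mucosal injury was produced by a tracheal tube of 3.0 mm in diameter, placed 13 cm deep, whose inflatable cuff stood at 35 cmH2O for 2 h. The labels do not say whether the control animals were intubated, or how long after cuff inflation the tissue was taken. They call the material epithelial cells, while the extraction protocol names tracheal mucosa. Libraries are named H1, H2 and H3 for high cuff pressure replicates 1, 2 and 3, and C1, C2 and C3 for control replicates 1, 2 and 3.

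Markers of epithelium and of the wall beneath it were both present. Airway epithelial markers summed to 1475 to 3947 CPM per library (CPM are counts scaled to a common library size with TMM factors) and smooth muscle markers to 417 to 8015 CPM. Library totals ran from 10501734 to 14415754 counts, so 3 counts corresponded to 0.193 to 0.353 CPM in a library. Of 13724 genes that passed a filter on low counts, 5.28% had an adjusted p under 0.05 (edgeR quasi-likelihood test, Benjamini-Hochberg over all genes tested), 3.67% higher and 1.62% lower with high cuff pressure, and in 37.3% the libraries of the groups did not overlap. These were 503 genes higher and 222 lower. Scaling by total counts in place of TMM factors moved the log2 fold changes of all genes by -0.39 and called 389 higher and 1241 lower. In these bulk libraries, fewer cells of a type and less RNA per cell cannot be told apart, and the p-values rest on the spread among these 6 libraries, which may be partly technical.

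MMPs are zinc-dependent endopeptidases that are secreted, or held at the cell surface, as inactive precursors and together cleave most components of the extracellular matrix. Expression of the collagenases, stromelysins, MMP9 and the macrophage elastase is low in resting tissue and inducible by interleukin-1, growth factors and wounding, whereas MMP2 and the membrane-anchored MMP14 are made constitutively by stromal cells. TIMPs bind the active site of MMPs. TIMP1 is a secreted, cytokine-inducible inhibitor, and TIMP3 is bound to the matrix. At epithelial wound edges, collagenase-1 and the stromelysins are known products of migrating keratinocytes and of the stromal cells beneath them.

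Transcripts of all 5 inducible proteases were higher in each high cuff pressure library than in any control, from a control level near or at 0 counts. Of the constitutive pair, MMP2 was lower, and MMP14 was higher without passing the threshold. TIMP1 stood at 705 ± 271 CPM (SD, n = 3) with high cuff pressure against 26.9 ± 9.06 CPM in controls, while TIMP3 was at 80.1 ± 30.5 against 129.8 ± 9.02 CPM. Of the 9 genes, 7 passed the filter on low counts, and of these 4 were called higher (MMP1, MMP9, MMP10, TIMP1) and 1 lower (MMP2), beside 3.67% and 1.62% of all genes tested; since the names were chosen on this contrast, nothing is read from these counts. MMP9 and MMP10 passed the filter through the high cuff pressure libraries alone, and MMP1 reached the filter's level in only 1 control library, so the count of calls among these 3 was favoured by the filter itself. In all 7 the groups did not overlap, beside 18.6% of all genes tested that were apart with the high cuff pressure libraries higher and 18.7% with them lower.

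**Figure D1:**
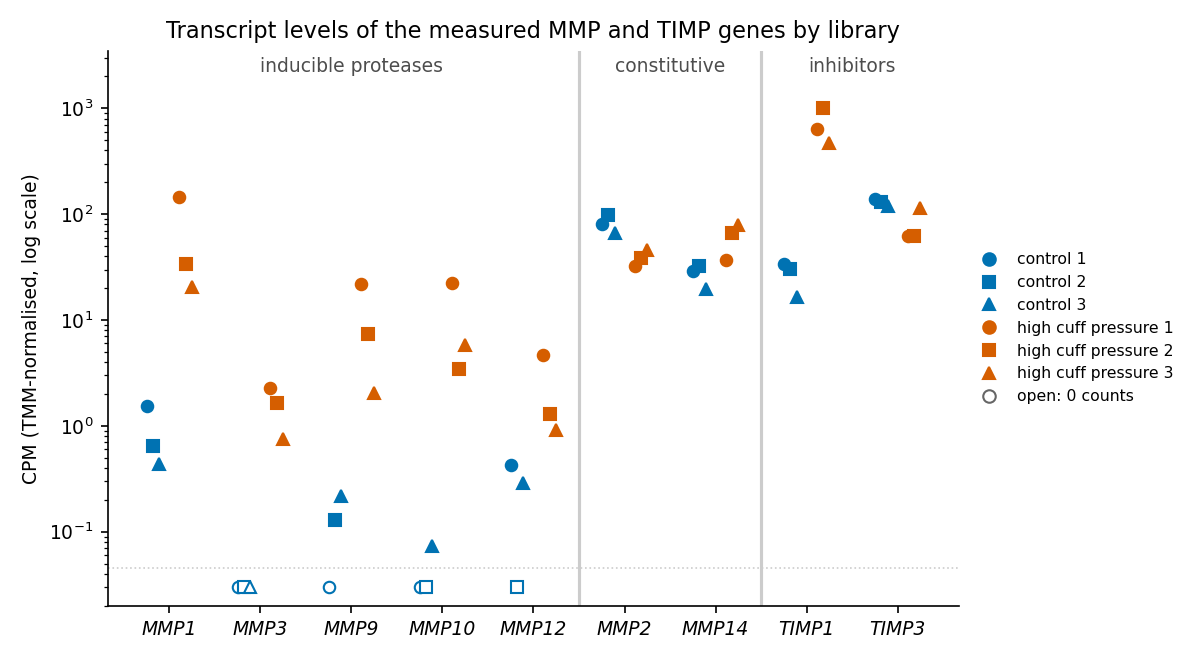
Each point is 1 library; the vertical axis gives TMM-normalised CPM on a log scale, and open symbols on the dotted strip mark libraries with 0 counts. The 5 inducible proteases and TIMP1 lie higher in every high cuff pressure library than in any control, MMP2 and TIMP3 lie lower, and H1 (orange circles) is the highest library for each inducible protease.

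Among the collagenases, MMP1 (ENSOCUG00000017958; chromosome 1, 113747022 to 113756573, plus strand) encodes interstitial collagenase, which cuts fibrillar collagens. It had 146, 33.9 and 20.4 CPM in H1, H2 and H3 and 1.54, 0.643 and 0.437 CPM in C1, C2 and C3, the order used for all values below. The lowest high cuff pressure library stood far above the highest control, and H1 held 7.15 times the level of H3. The log2 fold change was 6.27 ± 0.93 SE (edgeR adjusted p = 0.020). It was 4.98 without H1 and 6.93 without C1. Leaving out H2, C1, C2 or C3 ended the call, with edgeR adjusted p of 0.063, 0.054, 0.097 and 0.11. MMP1 was the most abundant inducible protease in all 6 libraries on the per-length scale, at 26.9 ± 28.3 FPKM (the authors' count per transcript length and library total) with high cuff pressure against 0.441 ± 0.253 FPKM.

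The stromelysins MMP10 and MMP3 cleave proteoglycans, laminin and other non-fibrillar matrix proteins and can activate procollagenases. MMP10 (stromelysin-2; chromosome 1, 113775354 to 113786608, plus strand) had 227, 29 and 77 counts in the high cuff pressure libraries and 0, 0 and 1 in the controls. In CPM the former were 22.4, 3.41 and 5.83. With 1 control count, the ratio of TMM-scaled counts was 428 with a 95% counting interval of 76.4 to 16971 (edgeR adjusted p = 0.019). Single libraries decided its size. The ratio was 201 without H1 and 266 without C2. C3 held the only control count, and without it MMP10 was at least 94.9-fold higher when the control group was set to a floor of 3 counts. Leaving out H2, C1, C2 or C3 ended the call, with edgeR adjusted p of 0.063, 0.062, 0.093 and 0.11.

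MMP3 (stromelysin-1; chromosome 1, 113716113 to 113724650, plus strand) had 23, 14 and 10 counts with high cuff pressure, or 2.27, 1.65 and 0.758 CPM, and 0 counts in every control. That made it at least 20.2-fold higher by the same floor, a bound that was 12.5-fold with C2 left out and 13.4-fold with C3 left out. With all 6 libraries, MMP3 and MMP12 did not reach the filter and were tested only in a fit without it, in which 2.65% of 20174 genes were called higher and 1.24% lower. There MMP3 passed (edgeR adjusted p = 0.020). With H3, C1, C2 or C3 left out, the filter asked for fewer libraries and MMP3 entered the test; it passed without H3 (edgeR adjusted p = 0.045) and not without C1, C2 or C3 (0.071, 0.11 and 0.11). The stromelysins are close relatives, and the treatment of reads shared between paralogs was not stated by the submitters' labels, so the split of reads between MMP3 and MMP10 is uncertain.

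MMP12, the macrophage elastase (chromosome 1, 113690209 to 113701868, plus strand), had 47, 11 and 12 counts with high cuff pressure and 5, 0 and 4 in controls. The CPM were 4.63, 1.29 and 0.909 against 0.427, 0 and 0.292. The groups did not overlap, and the ratio of counts was 10.01 with a 95% counting interval of 4.98 to 22.8. It did not pass in the unfiltered fit (log2 fold change 3.24 ± 0.97 SE, edgeR adjusted p = 0.086). In the filtered fits that MMP12 entered, the log2 fold change was 3.94 without C1 and 2.63 without C2, and it did not pass there (edgeR adjusted p = 0.13 and 0.20).

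MMP9 encodes gelatinase B, which is stored in neutrophil granules and is also made by macrophages and by epithelium at wounds (ENSOCUG00000016101; scaffold GL018725, 971854 to 978973, plus strand). It had 22.0, 7.30 and 2.05 CPM with high cuff pressure, from 223, 62 and 27 counts, and 0, 0.129 and 0.219 CPM in controls, from 0, 2 and 3 counts. H1 held 10.7 times the level of H3, the widest spread within that group among the 9 genes. The log2 fold change was 6.31 ± 1.12 SE (edgeR adjusted p = 0.032). It was 5.15 without H1 and 6.98 without C3. Leaving out H2, C1, C2 or C3 ended the call, with edgeR adjusted p of 0.089, 0.074, 0.12 and 0.12.

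Neutrophil markers differed between the libraries as well. Their summed level over 9 measured genes was 6819, 3627 and 1501 CPM with high cuff pressure and 181, 8.37 and 434 CPM in controls. S100A9, S100A12 and S100A8 held most of it, at 2471, 985 and 352 CPM on average with high cuff pressure. CSF3R came next at 120 CPM. Within the high cuff pressure group H1 was highest and H3 lowest for the marker sum and MMP9, and also for MMP1, MMP3 and MMP12. Of 8 tested markers 6 were higher and 0 lower, beside 3.67% and 1.62% of all genes tested. S100A9, the most abundant of them on average with high cuff pressure (2471 CPM), did not pass (edgeR adjusted p = 0.12). LTF went the other way, at 15.9 ± 1.23 against 39.2 ± 58.1 CPM (log2 fold change -1.30), and did not pass. MPO, a granule enzyme of neutrophil precursors, had 0 counts with high cuff pressure and 1 in controls. The part of neutrophil content in the MMP9 level was not tested. MMP8, the neutrophil collagenase, was listed at 0 counts in all 6 libraries. It was 1 of 5 such genes among the other matrix protease genes described below, BSG included. Whether these rows reflect absent transcripts or reads not assigned to the gene was not tested.

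Macrophage markers are given beside MMP12 as a sum and as single genes. Summed over 10 genes they had 208, 226 and 211 CPM with high cuff pressure and 128, 62.5 and 69.3 CPM in controls. CD68 and CD14 had the largest parts of the high cuff pressure sums, at 83.1 and 69.1 CPM on average. Between the libraries of the high cuff pressure group MMP12 differed by 5.10 times. Among single markers CD68 and CD14 differed there by 1.14 and 1.66 times, and MARCO and MRC1 by 3.46 and 3.41 times. Of 10 tested macrophage markers 4 were higher and 0 lower, beside 3.67% and 1.62% of all genes tested. C1QA, C1QB and C1QC went the other way (log2 fold change -1.05, -0.93 and -0.80) and did not pass. The part of macrophages in the MMP12 level was not tested.

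The constitutive proteases went opposite ways. MMP2, gelatinase A, a product of fibroblasts (ENSOCUG00000006714; chromosome 5, 11717140 to 11743377, plus strand), had 32.3, 38.4 and 45.8 CPM with high cuff pressure and 80.3, 98.9 and 66.7 CPM in controls. The 3 high cuff pressure libraries lay close together, all under the lowest control. Its log2 fold change of -1.08 ± 0.24 SE passed the threshold narrowly (edgeR adjusted p = 0.047). The value lay between -1.21 and -0.92 in the fits that left out 1 library. MMP2 passed in only 1 of these, without H1 (edgeR adjusted p = 0.042). With H2, H3, C1, C2 or C3 left out the edgeR adjusted p was 0.12, 0.061, 0.11, 0.17 and 0.14.

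MMP14, membrane type 1 MMP, which activates the MMP2 precursor at the cell surface (ENSOCUG00000010244; chromosome 17, 43077647 to 43085394, plus strand), had 37.3, 66.1 and 78.9 CPM with high cuff pressure and 28.9, 32.2 and 19.5 CPM in controls. The groups did not overlap, though H1 stood only a little above the highest control. MMP14 did not pass (log2 fold change 1.18 ± 0.33 SE, edgeR adjusted p = 0.074). Without H1 the log2 fold change was 1.44 and passed (edgeR adjusted p = 0.020), and DESeq2 called it with all libraries (adjusted p = 0.013). Fibroblast markers summed to 299.96, 1181 and 1698 CPM with high cuff pressure and to 1444, 2464 and 1620 CPM in controls. Of 10 tested, 2 were lower (LUM and OGN) and 0 higher, beside 1.62% and 3.67% of all genes tested. COL3A1 and COL1A2, with the largest parts of the sum on average, did not pass. H1 was the lowest library in its group for both constitutive proteases and for the summed fibroblast markers, whose part in either level was not tested.

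TIMP1 inhibits most secreted MMPs (ENSOCUG00000010718; chromosome X, 32653959 to 32658564, plus strand). It had 644, 1002 and 470 CPM with high cuff pressure and 33.7, 30.4 and 16.6 CPM in controls. Every high cuff pressure library held over 10 times the level of the highest control, and the largest lay 2.13 times above the smallest. The log2 fold change of 4.71 ± 0.44 SE had the smallest p of the 7 tested genes (edgeR adjusted p = 0.013), and it ranged from 4.38 to 4.94 with 1 library left out. Leaving out H2, C2 or C3 ended the call, with edgeR adjusted p of 0.060, 0.069 and 0.070.

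Calls were lost in those fits across the table as well. Of all genes, 3 were called higher and 1 lower without H2, 244 and 58 without H3, and 68 and 8 without C1, while 1362 and 1261 were called without H1. With C2 or C3 left out edgeR called 0 genes in either direction, so each call named in this text is absent there.

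TIMP3, which also inhibits ADAM and ADAMTS proteases (ENSOCUG00000008310; chromosome 4, 88310434 to 88361387, minus strand), had 62.6, 62.3 and 115 CPM with high cuff pressure and 138, 131 and 120.1 CPM in controls. H3 stood just below the lowest control, and H1 and H2 lay together at a lower level. TIMP3 did not pass (log2 fold change -0.70 ± 0.28 SE, edgeR adjusted p = 0.15). On the FPKM scale, where libraries are scaled by total counts, it was -1.13 and passed (limma-trend on log2(FPKM + 1), adjusted p = 0.038). It did not pass in the same fit without a filter (limma adjusted p = 0.071) or by edgeR with total counts (log2 fold change -1.07, adjusted p = 0.0575).

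Per length, the order of the genes differed between the groups. In controls TIMP3 led with 74.6 ± 4.69 FPKM, above TIMP1 at 26.2 ± 7.90, MMP2 at 23.6 ± 5.57 and MMP14 at 17.5 ± 4.44 FPKM. The ranges of these last 3 over the controls overlapped. Within each control library MMP14 was below MMP2 and TIMP1, while the order of MMP2 and TIMP1 changed between libraries. All 5 inducible proteases were below 1 FPKM. With high cuff pressure TIMP1 led with 519.7 ± 165 FPKM, above TIMP3 at 35.5 ± 15.3, MMP14 at 30.2 ± 11.1 and MMP1 at 26.9 ± 28.3 FPKM, which did not differ beyond their spread. MMP2 at 8.52 ± 1.75, MMP10 at 6.53 ± 6.48 and MMP9 at 3.93 ± 4.01 FPKM came next and also overlapped. MMP12 at 1.14 ± 1.05 FPKM and MMP3 at 0.753 ± 0.371 FPKM were lowest.

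Protease makeup differed in kind more than in sum. The constitutive pair summed to 26.2, 38.2 and 51.6 FPKM with high cuff pressure and 37.7, 52.3 and 33.5 FPKM in controls, so the groups overlapped. The inducible proteases added 85.4, 18.4 and 13.9 FPKM with high cuff pressure against 0.976, 0.424 and 0.614 FPKM. Their share of the 7 protease transcripts was 76.5%, 32.4% and 21.3% in H1, H2 and H3 and 2.52%, 0.804% and 1.80% in controls. MMP1 alone made up 61.3% to 69.7% of the inducible sum with high cuff pressure.

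**Figure D2:**
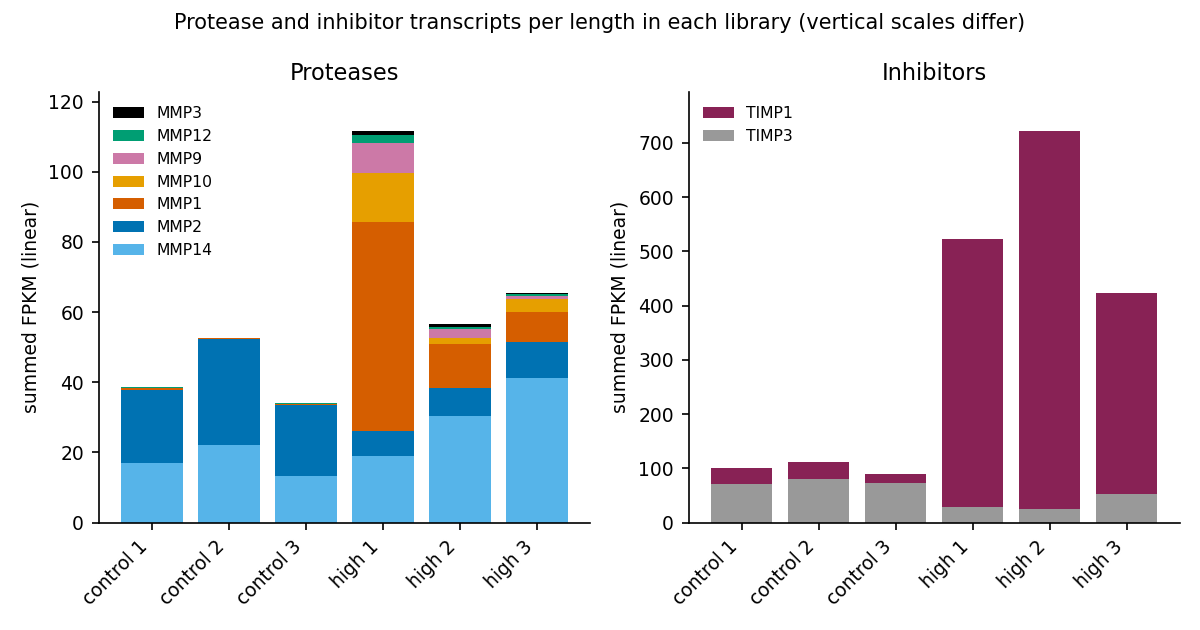
Bars stack the authors' FPKM of each gene per library on linear axes that start at 0 and differ in height between the panels, with "high" for high cuff pressure. With high cuff pressure MMP1 fills most of the inducible protease signal, most of all in H1 (high 1). TIMP1 takes up 87.4% to 96.5% of the sum of TIMP1 and TIMP3 with high cuff pressure against 19.1% to 29.4% in controls. TIMP2 and TIMP4 are not in this sum.

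Inhibitor transcripts outweighed protease transcripts in every library. TIMP1 and TIMP3 summed to 522, 721 and 422 FPKM with high cuff pressure and to 101, 112 and 89.6 FPKM in controls, a mean of 555 ± 152 against 101 ± 11.0 FPKM. The sum of the 7 proteases was 112, 56.6 and 65.5 FPKM against 38.7, 52.7 and 34.1 FPKM. Inhibitors per protease transcript were thus 4.68, 12.7 and 6.44 with high cuff pressure and 2.61, 2.12 and 2.63 in controls. TIMP2 enters none of these sums, and transcript sums do not measure enzyme activity.

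On the log2 scale, the ratio of all 7 proteases to the inhibitors was -2.86 ± 0.74 (SD, n = 3) with high cuff pressure and -1.29 ± 0.18 in controls, a difference of -1.57. The ratio of constitutive proteases to inhibitors was -3.86 ± 0.72 against -1.31 ± 0.19, a difference of -2.55. The ratio of inducible proteases to inhibitors went the other way, at -4.28 ± 1.45 against -7.31 ± 0.68, a difference of 3.03. In each of the 3 ratios the groups did not overlap. With TIMP1 alone as the inhibitor, the difference in the inducible ratio was 1.15 and the groups overlapped, with H2 below C1 and C3. No p-value is given for scores over genes chosen with the results known.

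**Figure D3:**
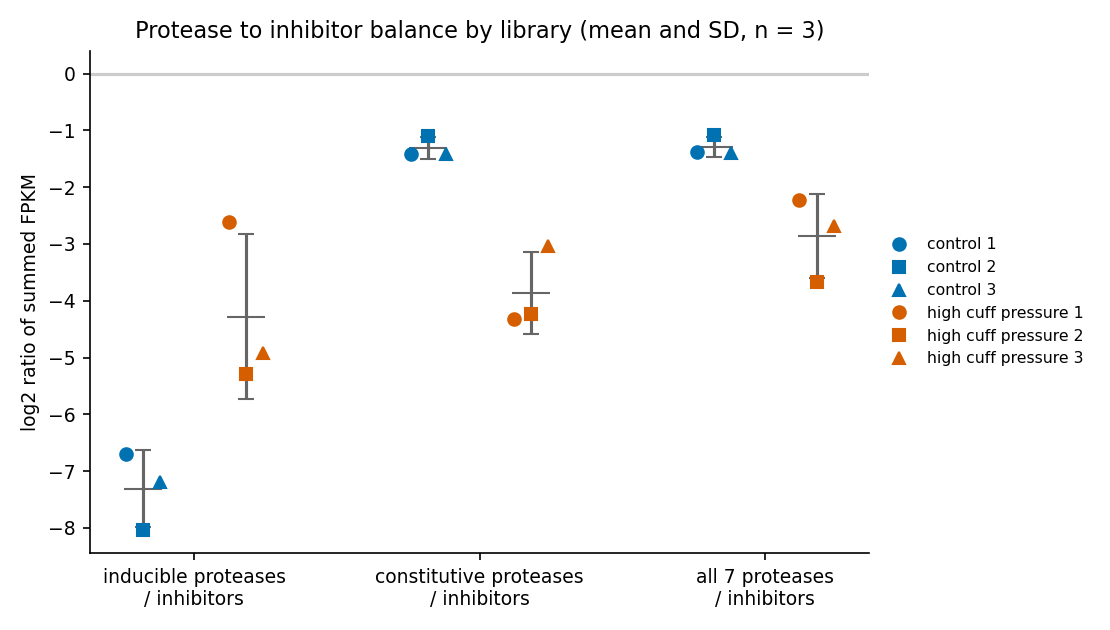
Points give the log2 ratio of summed FPKM in each library, and bars the mean and SD of 3 libraries. The inducible ratio is higher with high cuff pressure, the constitutive and total ratios are lower, and every point lies below 0, where inhibitor transcripts exceed protease transcripts.

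A different library stood apart in each ratio. H1 did so for the inducible ratio, at -2.61 against -5.30 and -4.92 in H2 and H3, and without it the difference between the groups was 2.20. H3 did so for the constitutive ratio, at -3.03 against -4.32 and -4.24 in H1 and H2, and without it the difference was -2.96. For the total ratio H2 was farthest from the group mean, at -3.67 against -2.23 and -2.69 in H1 and H3, and without it the difference was -1.17. H1 was the highest library of its group for MMP1, MMP3, MMP9, MMP10 and MMP12, whereas TIMP1 was highest in H2 and MMP2, MMP14 and TIMP3 in H3. In H1 smooth muscle markers summed to 417 CPM, against 3553 to 8015 CPM in the other 5, next to the high neutrophil and low fibroblast values above; the part of tissue makeup in its protease levels was not tested.

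Most of the inducible members lie together in the genome. All were named as MMP genes and the place holds MMP genes, so it is a description and gives their levels no separate support. MMP1, MMP3, MMP10 and MMP12 lie on the plus strand of chromosome 1 within a cluster of 9 MMP genes that spans 397 kb (113615791 to 114012696, coordinates as in the deposited table, build not given in the sources used here). In chromosome order these are MMP13, MMP12, MMP3, MMP1, MMP10, MMP8, MMP27, MMP20 and MMP7. MMP9 lies outside it on an unplaced scaffold, and the constitutive proteases and inhibitors lie on chromosomes 4, 5, 17 and X.

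In the cluster, MMP13, MMP12, MMP3, MMP1, MMP10 and MMP7 had higher CPM in each high cuff pressure library than in any control. The share of all genes tested that were apart in this direction was 18.6%. Of these MMP genes, MMP12, MMP3, MMP1 and MMP10 were chosen on this contrast, so nothing is read from their number. MMP12 and MMP3 were not among the genes tested, and MMP13 and MMP10 passed the filter through the high cuff pressure libraries alone. In the filtered fit MMP13, MMP1 and MMP10 were called and MMP7 was not. In the unfiltered fit MMP3 was called and MMP12 was not. A gene without a symbol between MMP13 and MMP12 (ENSOCUG00000029729) had overlapping groups, with a log2 fold change of 0.30 that did not pass (edgeR adjusted p = 0.76). Between MMP10 and MMP7, MMP8 and MMP20 had 0 counts throughout, and MMP27 had 3 counts, all in H3. MMP7 (matrilysin, an epithelial protease) at the far end had 1.68, 2.12 and 12.9 CPM against 1.28, 0.579 and 0.437 CPM. It did not pass (log2 fold change 2.88 ± 0.89 SE, edgeR adjusted p = 0.087), except with H1 left out (adjusted p = 0.035) or by DESeq2 (adjusted p = 0.0088), and with H3 left out the log2 fold change was 1.32. H3 was its highest library, whereas H1 was the highest for the 5 MMP genes from MMP13 to MMP10.

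Most genes tested beside the cluster had a negative log2 fold change, while PDGFD, DCUN1D5 and RGS19 had a positive one. Of 13 tested genes within 1 Mb on either side, a window chosen after the values were seen, 1 was higher and 1 lower. These counts stand beside 3.67% and 1.62% of all genes tested. The median log2 fold change of the 13 was -0.84, with a range from -1.93 to 1.71. The 1 gene called higher was RGS19 (edgeR adjusted p = 0.047) and the 1 called lower was TMEM123 (edgeR adjusted p = 0.048); both are named after their values were seen.

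**Figure D4:**
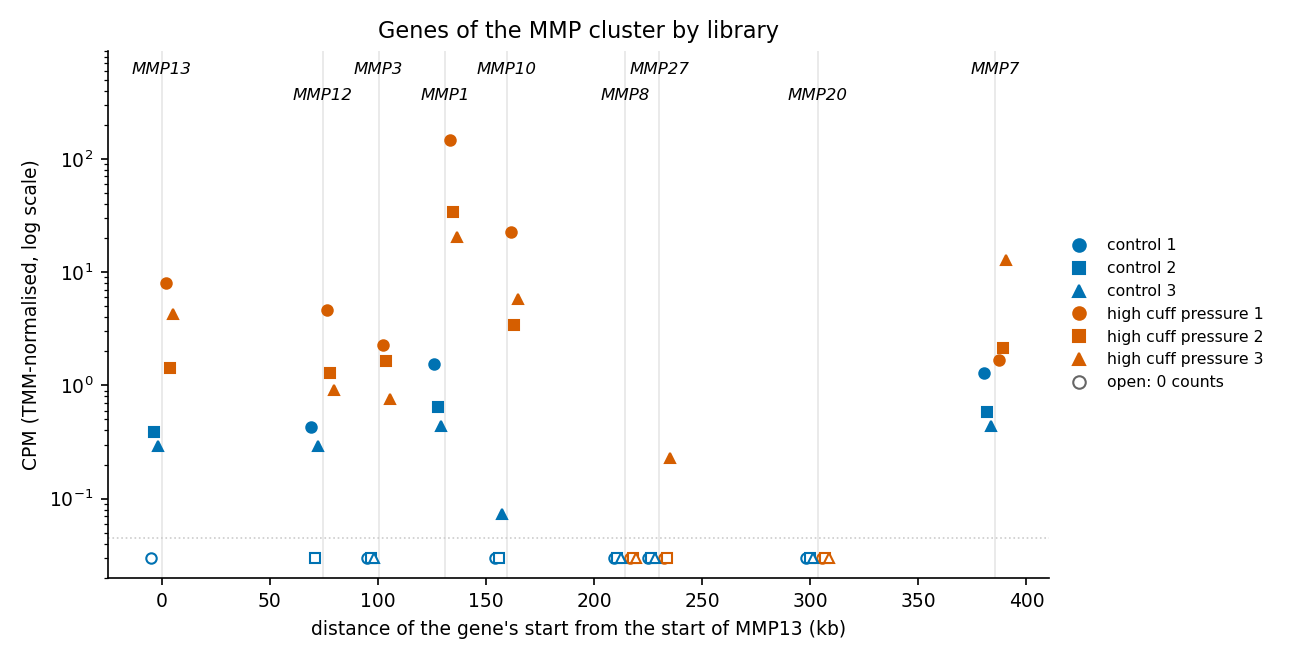
Points give TMM-normalised CPM per library on a log axis for the 9 MMP genes of the chromosome 1 cluster, placed by the distance of each start from that of MMP13; open symbols on the dotted strip mark 0 counts. The 5 MMP genes from MMP13 to MMP10 are separated between the groups, MMP8 and MMP20 are at 0 counts in all 6 libraries, and for MMP7 the lowest high cuff pressure library, H1 at 1.68 CPM, lies just above the highest control, C1 at 1.28 CPM.

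Beyond the members, 37 of 46 listed genes of matrix proteolysis had a row and 27 were tested. Of these 5 were higher and 0 lower, beside 3.67% and 1.62% of all genes tested, and the median log2 fold change was 0.92, beside -0.01. MMP13 and SERPINB2, which are among the 5, passed the filter through the high cuff pressure libraries alone. By edgeR 2 others had a negative change at an unadjusted p under 0.05, and DESeq2 called 11 higher and 1 lower. With 1 library left out, 9 were called higher without H1, 3 without C1, and 0 without H2, C2 or C3.

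The other collagenase of the cluster, MMP13, which prefers cartilage collagen, was the only further MMP called. It had 7.98, 1.41 and 4.24 CPM against 0, 0.386 and 0.292 CPM, with a log2 fold change of 4.21 ± 0.91 SE (edgeR adjusted p = 0.046). It passed in 1 of the 6 fits with a library left out, without H1, where the log2 fold change was 3.55. With H2, H3, C1, C2 or C3 left out the edgeR adjusted p was 0.085, 0.075, 0.088, 0.13 and 0.17, and the log2 fold change reached 4.80 without C2. Cartilage markers summed to 62.5 to 94.2 CPM with high cuff pressure and 24.5 to 51.5 CPM in controls. MATN1 held most of this on average (73.7 against 30.5 CPM), and each other marker averaged 2.85 CPM or less. Of those others, ACAN, COL11A2 and HAPLN1 averaged higher with high cuff pressure, and COL2A1 and COL9A1 lower. By edgeR 0 of 3 tested cartilage markers passed, and the part of cartilage in the MMP13 level was not tested.

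PLAUR, PLAT and SERPINB2, also called higher, belong to plasminogen activation, which feeds into MMP precursor cleavage. PLAUR, the urokinase receptor, had 27.8, 27.8 and 18.8 CPM against 3.16, 0.965 and 0.875 CPM (log2 fold change 3.91, or 4.74 without C1; edgeR adjusted p = 0.018). PLAT, tissue plasminogen activator, and SERPINB2, an inhibitor of plasminogen activators, stood at 213 ± 60.4 against 15.9 ± 8.57 CPM and at 4.93 ± 0.757 CPM against 0 counts. PLAU, urokinase itself, did not pass (log2 fold change 1.26 ± 0.35 SE, edgeR adjusted p = 0.069), except with H1 left out (adjusted p = 0.039) or by DESeq2 (adjusted p = 0.011). PLAUR, PLAT and SERPINB2 lost the call without H2 (edgeR adjusted p = 0.063 to 0.068) and without C2 or C3 (0.069 to 0.091), and PLAT also without C1 (0.052).

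Of the other MMP inhibitors, TIMP4 had 0.591, 0.941 and 2.95 CPM with high cuff pressure and 13.1, 1.54 and 1.53 CPM in controls. The groups overlapped, and C1 alone stood high. Its log2 fold change of -1.79 did not pass (edgeR adjusted p = 0.26) and was near 0 without C1. RECK, a membrane-anchored MMP inhibitor, had 2.66, 7.41 and 15.7 CPM against 15.5, 25.5 and 14.43 CPM and did not pass (log2 fold change -1.10 ± 0.58 SE, edgeR adjusted p = 0.25; -1.88 without H3 and -0.66 without H1).

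**Figure D5:**
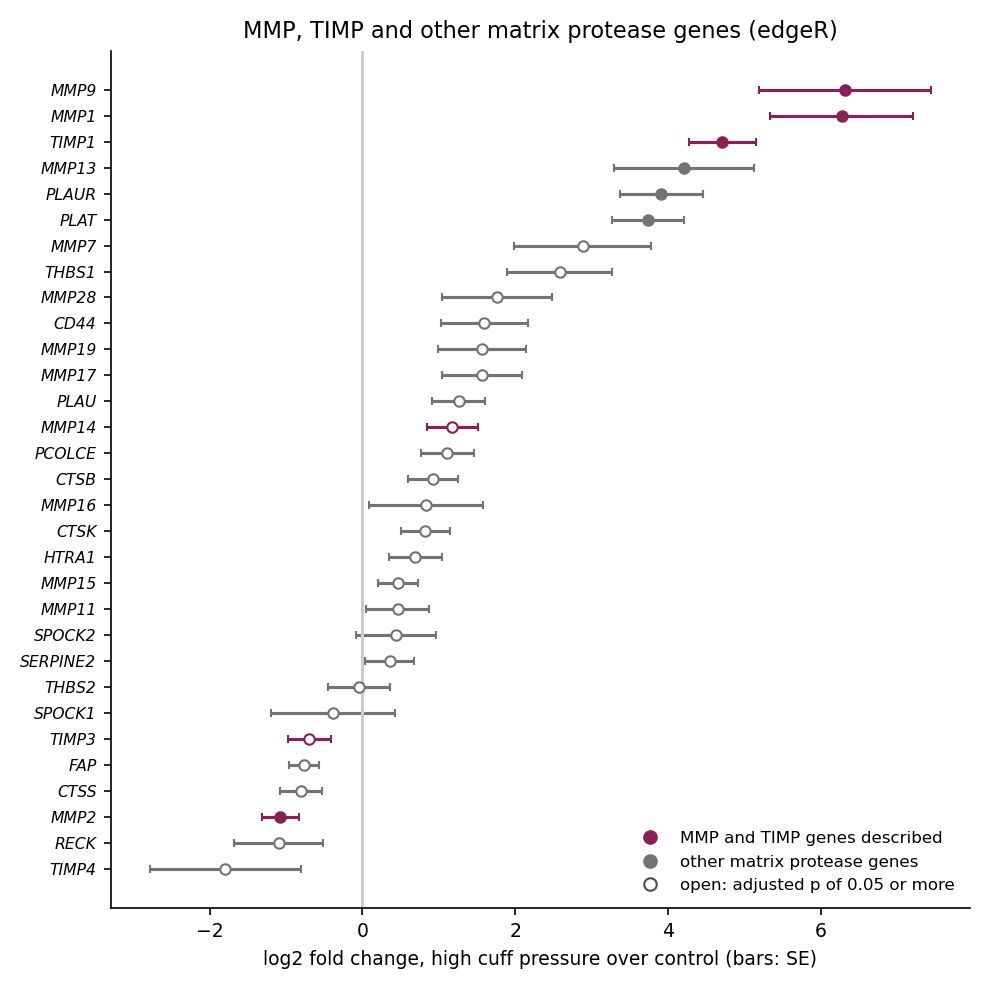
Points give edgeR log2 fold changes with SE for 6 of the 7 tested MMP and TIMP genes and for other matrix protease genes that were tested; filled points have an adjusted p under 0.05. MMP10 and SERPINB2, with 1 and 0 control counts, are left out because their fitted values depend on the prior count. MMP9, MMP1 and TIMP1 head the order, and TIMP4, RECK and MMP2 are at the foot.

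Among 13 tested genes of factors known to induce MMPs, 5 were higher and 0 lower, beside 3.67% and 1.62% of all genes tested (median log2 fold change 0.44). FOSL1 and IL1A passed the filter through the high cuff pressure libraries alone. They were the cytokines IL1A and IL1B, the AP-1 subunit FOSL1, the NF-kB subunit NFKB2 and the ETS factor ETV4. The other 4 AP-1 genes tested, FOS, FOSB, FOSL2 and JUN, did not pass, and whether they differed from FOSL1 was not tested. FOS had 133, 79.2 and 199 CPM with high cuff pressure and 1834, 12.5 and 52.5 CPM in controls, and FOSB had 7.29, 5.88 and 27.5 against 139, 4.18 and 2.99 CPM. For both, C1 was far above all other libraries, while C2 and C3 lay below every high cuff pressure library. JUN had 48.3, 35.0 and 31.2 against 404, 30.1 and 36.4 CPM, with C1 again far above the rest and the other libraries overlapping. FOSL2 overlapped between the groups. C1 was the highest control for MMP1, MMP12, TIMP1 and TIMP3 and had 0 counts of MMP3, MMP9, MMP10 and MMP13.

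By Pearson correlation of log2 CPM over the 6 libraries, the genes most like TIMP1 among 11132 with a symbol were CCDC134, SNORD96, GPAT4, LRCH4 and CARD19 (r of 0.994 to 0.996). Among the 5 most like MMP9 were CSF2RB, RASGRP4 and SNX24 (0.988 to 0.994), and those most like MMP2 were PPM1L, NUDT9, RCOR3, IGFBP5 and MAML2 (0.987 to 0.996). The libraries form separate groups, so that 835, 207 and 238 genes had an r over 0.9 with TIMP1, MMP9 and MMP2. These values describe likeness over 6 points only.

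The authors' deposited table gave q-values of 1.59e-19 for TIMP1, 1.89e-12 for MMP1, 1.63e-10 for MMP10, 7.76e-08 for MMP9, 9.42e-06 for MMP3 and 0.010 for MMP12, all marked up there. In the authors' deposited table MMP2 was marked down (q = 0.026), and MMP14 (q = 0.034) and TIMP3 (q = 0.24) were not marked.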

How the data were processed

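PolyA RNA from 6 samples of tracheal mucosa was sequenced (DNBSEQ-T7; per the labels). HISAT2 2.0.4, StringTie 1.3.3b and edgeR appear in the submitters' processing notes, without a role; the genome build and how reads were assigned to genes were not given in the sources used here. Per the file headers, the authors' table gives raw read counts and FPKM for each gene; a second deposited table gives the authors' p-values and q-values.

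Groups and replicate numbers follow the library names in the labels; control replicate 3 is titled S4. Whether libraries came from separate animals is not stated per library. Pairs within a group differed by more than counting noise (chi-square divided by its degrees of freedom, 56.1 to 137).

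The main test was edgeR 4.0.16 (R 4.3.3) on the deposited counts: filterByExpr (0.878 CPM in 3 libraries), TMM factors, robust glmQLFit and glmQLFTest, threshold 0.05. Standard errors are the log2 fold change over the square root of F; log2 CPM use a prior count of 2. Intervals and floors (3 counts over the group) cover counting error only. Alternatives were DESeq2 1.42.0, limma 3.58.1 (voom, and trend on log2 FPKM), other scalings and filters, a replicate block, each library left out, and other members of the ratios. The test was tested on simulated data.

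The members and gene lists were chosen with earlier results of these data known. All measured members are named. Of the other proteolysis genes, those past the threshold and MMP7, MMP8, MMP13, TIMP4, PLAU, PLAUR and RECK are named, and for TIMP1, MMP9 and MMP2 the 5 genes with the highest r; some genes the rule gives are not reported here.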

Additional observations from a re-analysis of the deposited data

How the results depend on the processing

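Of 120 values for the members under other settings, 89 kept their direction and their side of the threshold, 27 lost a call, 4 gained one and 0 changed direction. The calls over all genes depended most on which libraries entered. With 1 library left out, 0 to 1362 genes were called higher and 0 to 1261 lower. In the same fits 0 to 5 members were higher and 0 to 1 lower, and 0 to 9 other matrix protease genes higher and 0 to 2 lower. What made these calls differ was not tested.

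Against 503 genes higher and 222 lower, DESeq2 called 1461 and 1170. Total counts gave 1241 lower, limma-trend on log2(FPKM + 1) 1748 lower, log2(FPKM + 0.1) 1448 lower, and the unfiltered log2(FPKM + 1) 127 higher; the last called 2 members higher, and the filtered FPKM fits called 2 members lower. Of the other matrix protease genes, DESeq2 called 11 higher and 1 lower, and total counts and the filtered FPKM fits 2 lower. The cause was not tested.

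With the replicate number as a block, 198 genes were higher and 46 lower, and 0 members lower, since MMP2 lost its call (adjusted p = 0.14), as did MMP13 (0.096). Deviations of same-numbered libraries from their group means had r of -0.28, -0.20 and -0.23, and 0 libraries correlated best with their own number. With 3 libraries per group, centred on the group's own mean, these values cannot decide whether the numbers mark pairs.

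The difference between the groups in log2 ratio moved with the genes used. With TIMP1 alone, which is the same set as without TIMP3, it was 1.15 for inducible, -4.43 for constitutive and -3.45 for all proteases. In the inducible ratio the groups then overlapped, with H2 below C1 and C3. Added after seeing the data, leaving out MMP1 gave -2.11 for all proteases, and counting MMP7 and MMP13 as inducible gave 2.04 for inducible and -1.47 for all proteases. Leaving out 1 library gave 2.20 to 3.54, -2.96 to -2.32 and -1.89 to -1.17. Depth limited MMP3, MMP12, MMP9 and MMP10 in controls, where 0 to 9 counts stood over the group.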
